A study of Mus musculus with 18 samples.

Results

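Brunner's glands of mice without the receptor for glucagon-like peptide 1 (GLP-1R-/-) were set against those of wild-type animals, with neither group treated, to see which transcripts differed before any agonist was given. The comparison uses 6 of the 18 arrays of the series, chosen by their titles: 3 untreated wild-type arrays (numbered 1, 2 and 19) and 3 untreated knockout arrays (numbered 4, 5 and 6). Every animal was a male CD-1 mouse, and each array held RNA from the laser-captured glands of 1 mouse, so n counts mice. The knockout is labelled GLP1-R -/-, and untreated animals carry the time label control. Age, the construction of the deleted allele and whether the wild-type mice were littermates are not given in the labels. The other 12 arrays came from both genotypes 6 h and 18 h after exendin-4, in 4 groups of 3. In them the knockout minus wild-type difference was measured under treatment, so it also holds any difference in the response to exendin-4.

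Brunner's glands lie in the submucosa of the duodenum and secrete an alkaline mucus that protects the mucosa from gastric acid. The receptor for glucagon-like peptide 1 is a G protein-coupled receptor that raises cyclic AMP when it binds the gut hormone or its analogue exendin-4. It is known best from pancreatic beta cells, where it strengthens insulin secretion, and mouse Brunner's glands are a further site of its expression.

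The deposited values are log2 RMA signals, so a difference of 1 is a 2-fold difference. Each of the 17204 rows is headed by 1 Ensembl mouse gene identifier. None of the 49997 genes of the reference table (assembly GRCm38.p6) carried an Ensembl identifier, so no row could be given a symbol, a function or a chromosome. The level of the receptor transcript, the markers of the gland and of neighbouring cells, and whether the genes that differ lie on the chromosome of the receptor gene were therefore not analysed here. The genotype and tissue labels were not checked against the data for the same reason. Of the 17204 genes, 12775 were tested, each with at least 3 of the 18 arrays above 4.79, the 30th percentile of all values, called the filter level below.

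The genotype means of the 6 untreated arrays were alike in most genes. Pairs of the same genotype correlated across genes between 0.978 and 0.987, and pairs of different genotype between 0.971 and 0.982. Such correlations largely reflect the spread of levels between genes and say little about single genes. The median knockout minus wild-type difference over all tested genes was 0.02 on the log2 scale, and the median size of a difference was 0.11. The array that stands apart in the series, knockout 6 h replicate 13, is not among these 6, but it enters the spread shared by all groups.

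Limma called 79 genes at an adjusted p under 0.05, which is 0.618% of those tested. Of these, 47 were lower in knockouts (0.368% of tested genes) and 32 were higher (0.25%). Before adjustment the balance was the other way, with an unadjusted p under 0.05 in 545 genes higher and 417 lower of the 12775 tested. With no genotype difference in any gene a share of about 0.05 would pass that threshold, so these counts hold many genes that need not differ. The genes lower in knockouts had a median difference of 2.42-fold, and those higher a median of 2.10-fold. Among the falls, 5 genes were at least 4-fold lower, 22 were 2-fold to 4-fold lower and 20 differed by less. Among the rises, 4 genes were at least 4-fold higher, 15 were 2-fold to 4-fold higher and 13 differed by less. Differences ranged from 1.42-fold to 24.3-fold in size.

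All 79 called genes had 3 knockout arrays on one side of the 3 wild-type arrays, as did 13.4% of all tested genes, 993 of them higher and 722 lower in knockouts. The calls came from the same arrays, which favours groups that do not overlap. The distance between the nearest arrays of the genotypes was wider than 1 on the log2 scale for 12 of the 47 falls and 6 of the 32 rises. Its median was 0.72 for the falls and 0.58 for the rises. In 5 of the falls all 3 knockout arrays lay below the filter level, and in 3 of the rises all 3 wild-type arrays did. RMA gives no detection call, so a gene at that level cannot be told from an absent one. The folds of such genes are ratios of measured signals.

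**Figure D1:**
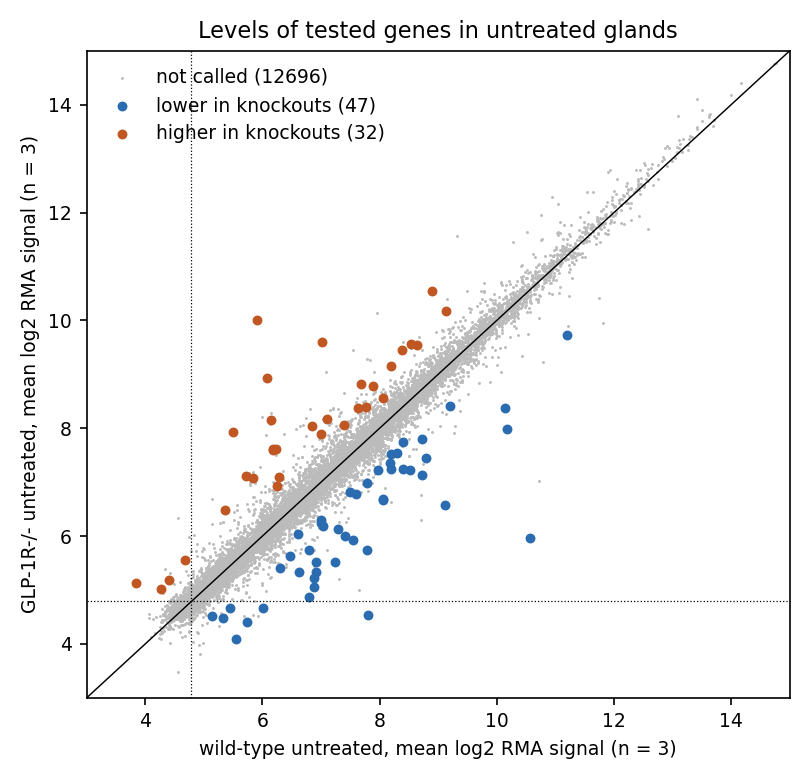
Mean log2 RMA signal of each tested gene in untreated wild-type (x axis) and untreated GLP-1R-/- glands (y axis), n = 3 mice each. The 47 genes called lower in knockouts lie below the diagonal and the 32 called higher lie above it; dotted lines mark the filter level of 4.79.

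ENSMUSG00000049436 had the largest fall in knockouts. Its level was 10.5, 10.7 and 10.5 in wild-type replicates 1, 2 and 19, and 7.62, 5.02 and 5.26 in knockout replicates 4, 5 and 6. Every knockout array lay far below every wild-type array, but replicate 4 stood well above the other knockouts. The means were 10.6 ± 0.135 and 5.97 ± 1.44 (SD, n = 3 each). Knockouts were 24.3-fold lower, a log2 difference of -4.60 (SE 0.741, limma adjusted p = 0.00687). Without knockout replicate 4 it was -5.43 (limma adjusted p = 0.00343). With any 1 of the other untreated arrays left out, it was between -4.66 and -4.13 (limma adjusted p between 0.0261 and 0.0490).

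ENSMUSG00000085890 had the next largest fall in measured signal. Wild-type replicates 1, 2 and 19 measured 7.18, 7.79 and 8.45, and knockout replicates 4, 5 and 6 measured 4.54, 4.37 and 4.68. All 3 knockout arrays were below the filter level. The means were 7.81 ± 0.640 in wild-type mice and 4.53 ± 0.155 in knockouts (SD, n = 3 each). The log2 difference of the measured signals was -3.28 (SE 0.384, limma adjusted p = 0.000626). With the filter level taken as the floor, knockouts were at least 8.12-fold lower.

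The largest rise belonged to ENSMUSG00000091747. It measured 7.30, 5.32 and 5.13 in wild-type replicates 1, 2 and 19, and 10.4, 10.2 and 9.44 in knockout replicates 4, 5 and 6. Wild-type replicate 1 was clearly above its group, yet below every knockout array. The means were 5.92 ± 1.20 and 10.01 ± 0.495 (SD, n = 3 each), a log2 difference of 4.09, which is 17.1-fold (SE 0.651, limma adjusted p = 0.00677). Without wild-type replicate 1 the difference was 4.79 (limma adjusted p = 0.00636). With any 1 of the other untreated arrays left out, it was between 3.70 and 4.38 (limma adjusted p between 0.0228 and 0.0417).

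ENSMUSG00000030703 followed among the rises. Its wild-type levels were 5.26 in replicate 1, 7.72 in replicate 2 and 5.24 in replicate 19, and its knockout levels were 9.41, 8.78 and 8.62 in replicates 4, 5 and 6. Here it was wild-type replicate 2 that stood above its group. The means were 6.07 ± 1.43 and 8.94 ± 0.418 (SD, n = 3 each), a difference of 2.87 or 7.29-fold (SE 0.452, limma adjusted p = 0.00677). In a limma fit to only the 6 arrays compared, the difference was again 2.87 but was not called (adjusted p = 0.114). Without wild-type replicate 2 it was 3.69 (limma adjusted p = 9.03e-07). With any 1 of the other untreated arrays left out, it was between 2.45 and 3.03 (limma adjusted p between 0.0228 and 0.0407).

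In 3 of these 4 genes a single mouse of the lower group carried an intermediate level. Such a wide spread was uncommon among the called genes: the 3 arrays of a genotype spanned more than 1 on the log2 scale in 5 of the 79 genes among wild types and in 4 among knockouts. A small spread within groups itself favours a call. Among the 79 genes, so chosen, no untreated array was the odd one throughout. Among wild-type mice, replicate 2 lay farthest from the group median in 33 of the 79 genes, replicate 1 in 27 and replicate 19 in 19. Among knockouts the counts were 27, 27 and 25 for replicates 4, 5 and 6.

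The calls nevertheless depended on having all 6 mice. The count of 79 was 40 when wild-type replicate 1 was left out and 40 when wild-type replicate 2 was. Leaving out knockout replicate 4 gave 41, and leaving out knockout replicate 5 gave 31. Without wild-type replicate 19 it was 60, and without knockout replicate 6 it was 56. These counts include genes outside the 79. Of the 79 themselves, between 29 and 44 were called in each of these fits. In all 6 such fits 24 of the 79 were called again, 15 of the falls and 9 of the rises, and 13 were called in none. All 4 genes described above were among the 24. Leaving knockout 6 h replicate 13 out of the shared spread raised the count to 137, 70 of them lower in knockouts. Limma's array weights raised it to 177, of which 93 were lower.

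A large difference did not by itself give a call. Another 85 genes differed at least 2-fold between the group means and were not called, 49 higher and 36 lower in knockouts. The genotypes did not overlap in 55 of the 85 and overlapped in 30. In 62 of the 85 the 3 arrays of a genotype spanned more than 1 on the log2 scale, and in 34 more than 2. The widest difference among them was -3.70 (limma adjusted p = 0.488). That gene measured 13.3 and 12.9 in wild-type replicates 1 and 2, 5.94 in wild-type replicate 19, and 6.54, 7.31 and 7.20 in knockout replicates 4, 5 and 6. It was chosen after its values were seen. Wild-type replicate 19 thus lay below all 3 knockouts, and the other wild-type mice far above them.

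The knockout minus wild-type difference was then measured in the treated mice. There it is not the untreated quantity alone, since it also holds any difference between the genotypes in the response to exendin-4. A gene called again can therefore owe its call to either part, and the parts were not separated in these counts. Knockout and wild-type mice 6 h after exendin-4 share no array with the untreated mice, and nor do those at 18 h. The treated arrays also had a part in choosing the 79 genes, since they entered the filter and the spread shared by all groups. At 6 h, 74 of the 79 genes differed in the untreated direction, where 57.1% of all tested genes did. Of the 79, 40 were called at 6 h in that direction (50.6%), and 0 in the opposite one; over all tested genes 6.07% were called at that time. At 18 h, 73 of the 79 had the untreated direction, against 58.9% of all tested genes. There 36 were called in that direction (45.6%) and 0 in the opposite one, where 1.27% of tested genes were called.

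The median difference at 6 h, turned to the untreated direction, was 0.65 on the log2 scale, and at 18 h it was 0.81. Over all tested genes the median size was 0.21 at 6 h and 0.14 at 18 h. Both medians were below the untreated median of 1.13, which is inflated because the untreated arrays chose the genes. At 6 h, 17 genes differed by more than in untreated mice, and at 18 h 18 did. The rest differed by less, 5 of them at 6 h and 6 at 18 h in the opposite direction. The count called at 18 h was 20 when wild-type replicate 11 was left out, 23 when knockout replicate 17 was and 17 when knockout replicate 18 was.

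**Figure D2:**
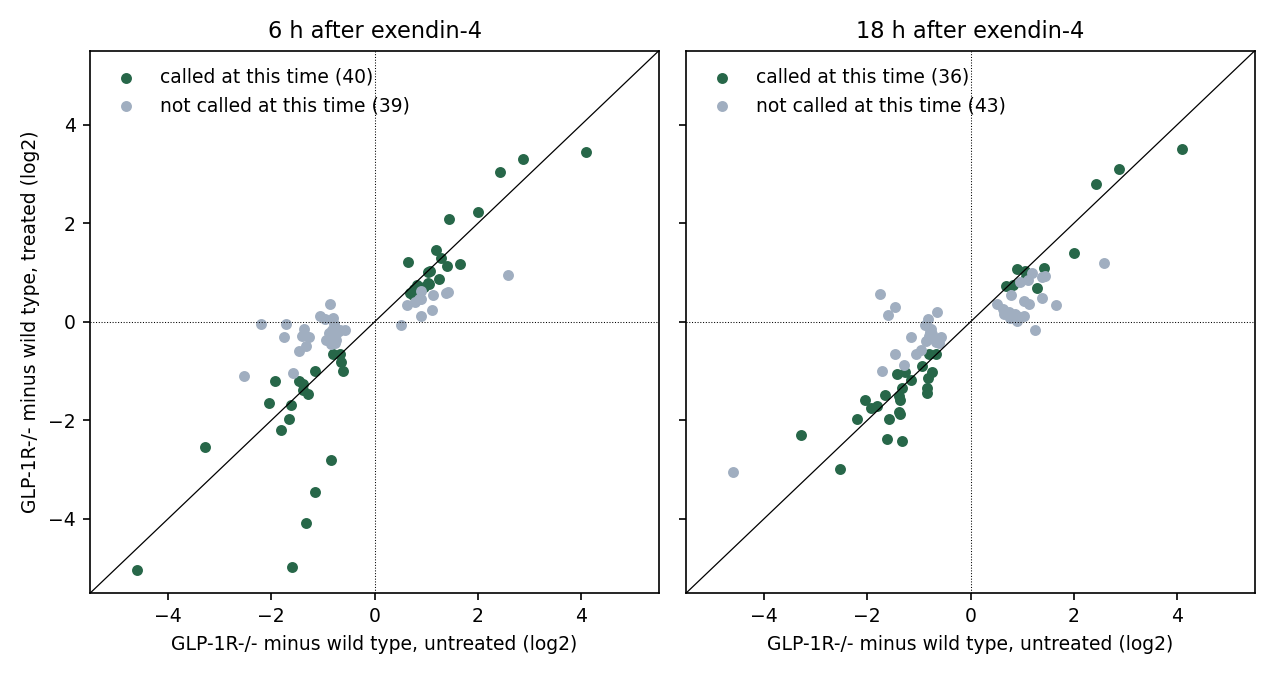
GLP-1R-/- minus wild-type difference (log2) of the 79 called genes in untreated mice (x axis) against mice 6 h (left) and 18 h (right) after exendin-4, with the diagonal of equal differences. Green points were called at the treated time (40 and 36 genes); most points lie in the quadrants of equal sign.

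Rises and falls were called again in different numbers. Of the 32 rises, 20 were called at 6 h and 11 at 18 h, where 2.73% and 0.352% of tested genes were called higher. Of the 47 falls, 20 were called at 6 h and 25 at 18 h, where 3.33% and 0.916% of tested genes were called lower. Whether these shares differ between rises and falls was not tested. In all, 21 genes were called at both treated times, 9 rises and 12 falls, against 0.384% of tested genes. A further 19 were called at 6 h and not at 18 h, 15 at 18 h and not at 6 h, and 24 at neither.

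In 33 of the 79 genes (41.8%), all 9 knockout arrays of the series lay on one side of all 9 wild-type arrays, as did 0.658% of tested genes. These 33 were 14 rises and 19 falls. All 79 genes already had groups that do not overlap in the untreated arrays that chose them, as did 13.4% of all tested genes. The share of 0.658% is therefore not a fair background for the 41.8%. Over the 12 treated arrays alone, the same 33 of 79 had groups that did not overlap, against 2.53% of tested genes. Tight treated groups favoured both a call, through the shared spread, and groups that do not overlap. All 4 genes described above were among them.

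For ENSMUSG00000049436 the treated wild-type arrays measured 10.7, 11.9 and 11.2 at 6 h and 10.9, 11.1 and 11.3 at 18 h. The knockout arrays measured 5.22, 8.53 and 4.92 at 6 h and 8.46, 8.10 and 7.50 at 18 h. The knockouts thus covered a wide range, and at 18 h all of them sat near the upper end of it. At 6 h the genotype difference was -5.04 (SE 0.741, limma adjusted p = 0.000601). At 18 h it was -3.05 and was not called (limma adjusted p = 0.0534).

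In wild-type arrays ENSMUSG00000085890 measured between 6.89 and 7.20 at 6 h and between 6.02 and 8.09 at 18 h. In knockouts it measured 4.60, 4.21 and 4.78 at 6 h, all below the filter level, and 5.18, 4.92 and 4.53 at 18 h, close to it. It was called lower in knockouts at both times. The log2 difference of the measured signals was -2.55 at the earlier (limma adjusted p = 0.000713) and -2.29 at the later (limma adjusted p = 0.00659).

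For ENSMUSG00000091747, knockouts measured between 9.23 and 10.4 at 6 h and between 8.78 and 9.70 at 18 h. Wild-type mice measured 8.34, 5.31 and 5.69 at 6 h and 6.34, 5.44 and 5.81 at 18 h. Again 1 wild-type mouse, 6 h replicate 7, had a level between the others of its group and the knockouts. Knockouts were higher by 3.45 at 6 h (limma adjusted p = 0.00428). At 18 h they were higher by 3.52 (limma adjusted p = 0.0119).

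For ENSMUSG00000030703 the 6 treated wild-type mice lay between 5.15 and 5.87, and the 6 treated knockouts between 8.40 and 8.97. No treated wild-type mouse had a level like the 7.72 of untreated replicate 2. The 6 h difference was 3.30 (limma adjusted p = 0.000332). The 18 h difference was 3.11 (limma adjusted p = 0.00214).

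**Figure D3:**
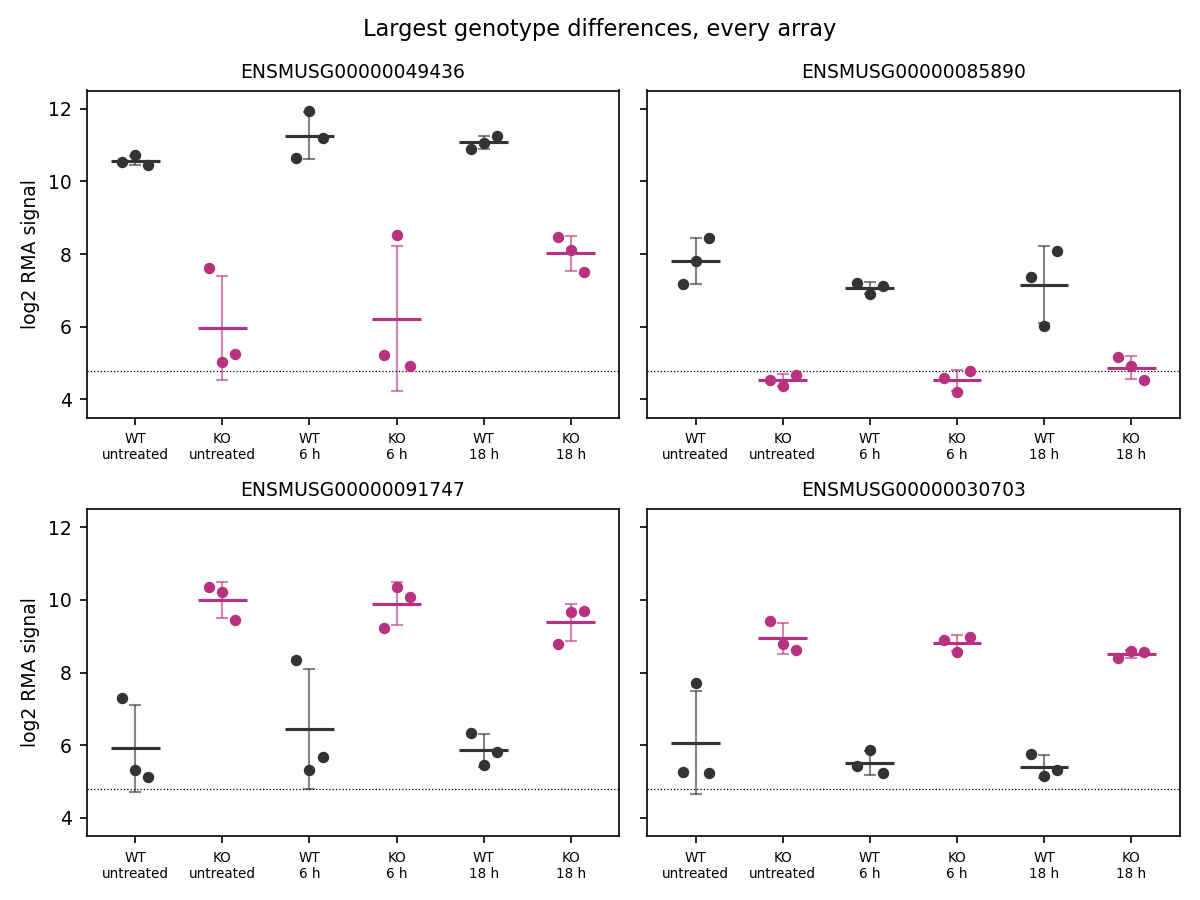
Log2 RMA signal of the 2 genes with the largest falls (top) and the 2 with the largest rises (bottom) in all 18 arrays, by group; points are mice, bars are the mean ± SD (n = 3), WT is wild type, KO is GLP-1R-/- and the dotted line is the filter level of 4.79. In each gene every knockout point lies on one side of every wild-type point.

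Whether the genotype difference itself differed with treatment was tested with the contrast of the treated and the untreated difference. These contrasts contain the untreated arrays that chose the 79 genes, which favours a shrinking difference. At 6 h limma called 6 of the 79 genes, all of them falls, where 0.376% of tested genes were called. At 18 h it called 0 of the 79, where 0.0235% of tested genes were called, with a smallest adjusted p of 0.174 among the 79. An unadjusted p under 0.05 was found for 34 of the 79 at 6 h, where 10.3% of tested genes had one, and for 26 at 18 h, where 4.7% had one. At 18 h 2 of the 79 were called without untreated knockout replicate 5, and 2 with array weights.

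The 6 genes went in different ways. In 4 of them the knockout fall was wider at 6 h than without treatment, with changes in the log2 difference of -3.38, -2.75, -2.30 and -1.95. The wild-type means of these 4 genes were higher at 6 h than in untreated mice by 2.32 to 3.87, while their knockout means moved by at most 0.49. The gene with the widest change was at 8.73 ± 0.521 in untreated wild-type mice and 12.6 ± 0.277 at 6 h, against 7.13 ± 0.0964 and 7.62 ± 0.412 for the same times in knockouts (SD, n = 3 each). In 2 of the 4 genes all 3 untreated knockout arrays lay below the filter level. By 18 h the gene with the widest change had a wild-type level of 7.18 ± 0.198 and a knockout level of 7.31 ± 0.365, and the genotypes overlapped.

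In the other 2 genes the untreated fall was absent at 6 h. The tighter of them was at 6.79 ± 0.0396 in untreated wild-type mice and 5.74 ± 0.0382 in untreated knockouts (SD, n = 3 each). At 6 h it was at 6.05 ± 0.123 and 6.16 ± 0.415, and the knockout mean includes 6.63 in replicate 13, which lay above both other knockouts. The change in the genotype difference was 1.16 (SE 0.238, limma adjusted p = 0.0422). The other gene changed by 1.21 (SE 0.251, limma adjusted p = 0.046). At 6 h it was at 5.67 ± 0.289 in wild-type mice and 6.02 ± 0.272 in knockouts (SD, n = 3 each). Its knockout mean again includes a high value in replicate 13, 6.34. Neither call held when any 1 of the 6 untreated arrays was left out.

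**Figure D4:**
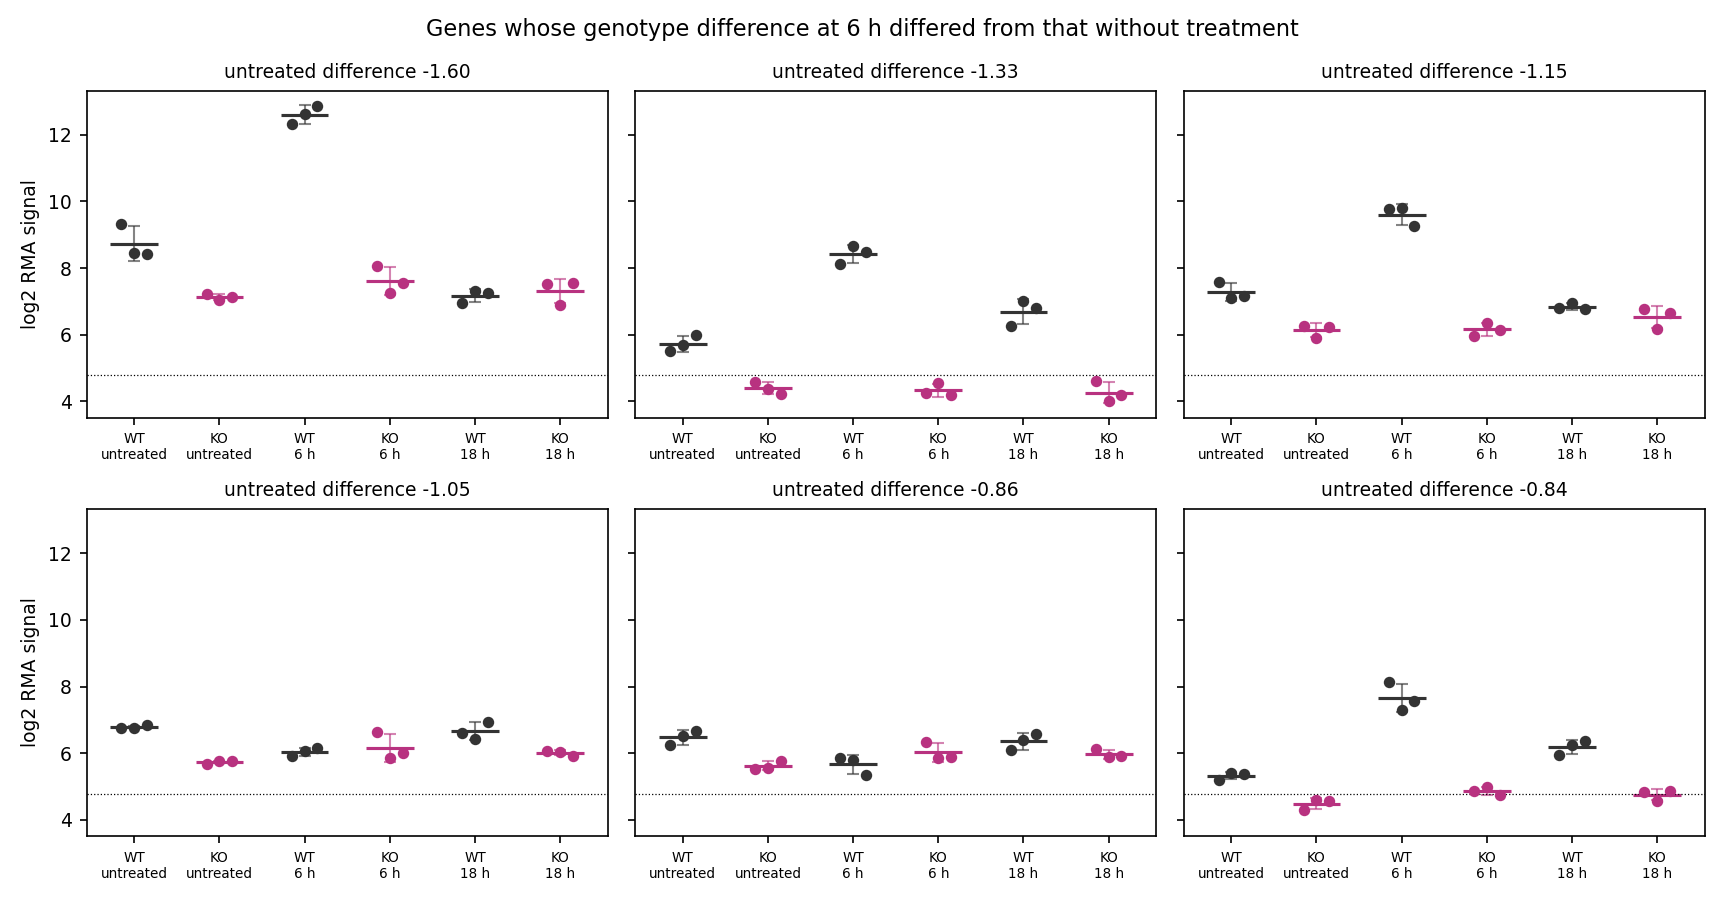
Log2 RMA signal in all 18 arrays of the 6 genes whose genotype difference at 6 h differed from that in untreated mice, by group; points are mice, bars the mean ± SD (n = 3) and the dotted line the filter level of 4.79. In 4 panels the wild-type points at 6 h lie above all other groups, and in the panels headed -1.05 and -0.86 the genotypes overlap at 6 h.

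By the median change per gene, the genotypes lay closer together in treated than in untreated mice among both falls and rises. For the 47 falls, the median change from the untreated mean of the same genotype was 0.15 at 6 h and 0.20 at 18 h in knockouts, on the log2 scale. In wild-type mice it was -0.31 and -0.11. For the 32 rises, the median change in knockouts was -0.097 at 6 h and -0.32 at 18 h, and in wild-type mice 0.15 and 0.14. The untreated arrays in these changes are those that chose the genes, which favours a narrowing. Across all 12775 genes, which are not independent replicates, the untreated difference correlated with that at 6 h with a Pearson r of 0.407 and a Spearman rho of 0.226. With the 18 h difference the values were 0.532 and 0.299. These 3 comparisons share no arrays.

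**Figure D5:**
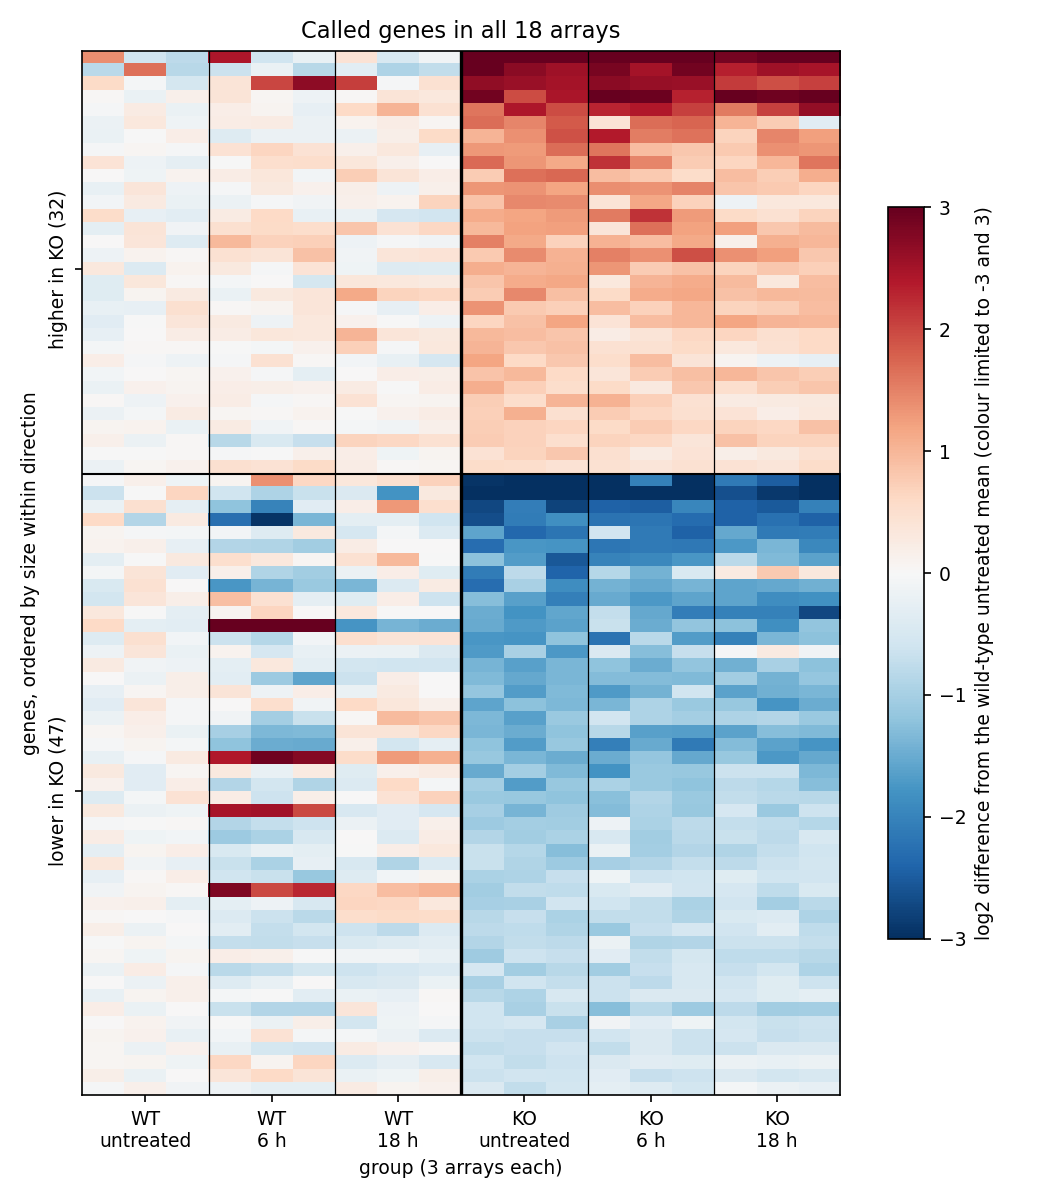
Difference of each array from the untreated wild-type mean (log2, colour limited to -3 and 3) for the 79 called genes, rows ordered by size within the 32 rises (top) and the 47 falls (bottom), columns grouped by genotype and time with 3 arrays each. Knockout columns keep their colour at 6 h and 18 h in most rows, and 4 rows among the falls are deep red in wild-type mice at 6 h.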

How the data were processed

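RNA from laser-captured Brunner's glands of individual mice was hybridised to Affymetrix arrays, per the labels' protocols. The values the authors deposited are log2 signals from RMA, as named without a version in the submitters' processing notes. Not given in the sources used here are the array model, the genome build and the definition of the probe sets. RMA compresses differences of dim genes. Array medians lay between 5.88 and 6.11. Arrays have no read depth, and their number limits the precision.

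Groups came from the sample titles. With limma 3.58.1 (R 4.3.3), each of the 6 groups of the 18 arrays was given its own mean in a linear model, and eBayes gave two-sided p-values and Benjamini-Hochberg adjusted over 12775 genes. The fit was tested on simulated data, drawn independently for each gene with the same spread in every array. Such data hold no array that stands apart, so they cannot show how far the calls depend on such an array. The rule for naming took the 15 largest differences in each direction among called genes whose groups do not overlap. With no symbols, only the first 2 identifiers in each direction are printed. Members, lists and tests were chosen with earlier results of these data known. The gene lists and marker lists fixed by symbol, the receptor transcript and positions near it were not analysed here. Alternatives were other sets of arrays, array weights, filters, centring and the eBayes prior.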

Additional observations from a re-analysis of the deposited data

Results flagged for a closer look

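In 6 genes, all lower in untreated knockouts, the genotype difference 6 h after exendin-4 differed from that in untreated mice by limma's contrast of the 2 differences. Ordered by the size of their untreated fall, the changes in the knockout minus wild-type difference were -3.38, -2.75, -2.30, 1.16, 1.21 and -1.95 on the log2 scale. A negative value means a wider fall at 6 h. The 4 negative changes were called in every alternative run. The values of 1.16 and 1.21 were called in the other alternatives, but not when any 1 untreated array was left out (limma adjusted p between 0.0598 and 0.126). Groups of 3 mice were not tested for single outlying animals.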

How the results depend on the processing

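The count of 79 genes was 137 without knockout 6 h replicate 13, 177 with array weights, and between 31 and 60 when 1 untreated array was left out. With no filter it was 67, with the stricter filter 74, with centred arrays 68, with a trended robust prior 74, and in a fit to only the 6 arrays compared 53, of which 41 were among the 79. The share of calls that were lower in knockouts was 59.5%. It was 51.1% without knockout 6 h replicate 13, 52.5% with array weights, 60.3% with centred arrays, and between 55.4% and 67.5% without 1 untreated array. The 40 genes called again at 6 h were between 31 and 53 in all alternatives. The 36 called again at 18 h were 57 with array weights and between 17 and 32 without 1 of the 6 arrays. The 6 genes whose difference changed at 6 h were 14 with array weights and between 4 and 5 without 1 untreated array. At 18 h that count was 2 with array weights and between 0 and 2 without 1 untreated array. The causes were not tested. The receptor transcript, genes near it and list members could not be recomputed because no identifier has a symbol. No paired analysis was possible because no array number in the labels occurs in more than 1 group.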
